A study of Drosophila melanogaster with 2 samples.

Results

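The muscle genes described here are 30 genes for the contractile apparatus of Drosophila melanogaster, namely actins, myosins and other thick filament proteins, troponins, tropomyosins, the giant elastic proteins and the proteins of the Z-disc. They were taken by name from a list of sarcomere genes, with every transcript probe whose CG number maps to a listed gene. The list had 47 probes on the array, out of 14593 distinct gene probes for 13136 genes, and each of the 47 was printed as 1 spot. After leaving out probes that were not above local background anywhere, 32 muscle probes for 25 genes could be tested, out of 6345 probes.

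RNA came from whole female larvae of the third instar. The ablated larvae carried rnGAL4, UASegr and tubGAL80[ts] over a wild-type chromosome (rnGAL4,UASegr,tubGAL80[ts]/+). In them eiger, a death-inducing ligand of the tumour necrosis factor family, was driven in the wing disc pouch by rnGAL4. The control larvae carried TM6, the marker Tb[1] and a tubGAL80 transgene, so they had neither the driver nor the death gene. Both groups carried GAL80 and spent 24 h at 30 °C, and the titles give day 6. The groups thus also differ in TM6 and Tb[1], whose effects cannot be told apart from those of ablation. The death gene was directed to the wing disc, and activity of the driver in muscle was not measured, while RNA was taken from the whole animal. Fewer muscle cells and less muscle RNA per cell cannot be told apart in such RNA. Each of the 2 arrays set 1 ablated against 1 control sample in 2 colours. The dyes were swapped, with Cy5 on the ablated RNA of replicate 1 and Cy3 on that of replicate 2. Nothing in the labels tells whether the replicates are separate cultures, and a p-value here reflects no more than the spread of these arrays, possibly technical. The labels also state the temperatures for GAL80 the opposite way in 2 places, and the series design, with death induced at 30 °C, was followed.

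A sarcomere is the repeating unit of striated muscle, in which thin filaments of actin slide along thick filaments of myosin. Tropomyosin and the troponin complex lie along the thin filament and open it to myosin when calcium binds troponin C. Thin filaments are anchored at the Z-disc, and giant elastic proteins tie the filaments to it. Flies build a first set of muscles in the embryo, which moves the larval body wall, and a further set in the pupa, which includes the fibrillar flight muscles. Several actin and troponin C genes are used mainly in one of these sets, while genes such as Mhc serve both through alternative splicing.

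The value reported for a probe is its log2 ratio, ablated over control, on each array, after background correction and loess normalization. Values below 0 mean lower in the ablated larvae. Errors are the SD over the 2 arrays (n = 2). A channel counts as above background when the spot median exceeds the local background median by more than 2 SD of that background. The share of gene spots above background was 38.1% in the ablated and 26.9% in the control channel of replicate 1, against 17.6% and 15.0% on replicate 2. The number of arrays and this low signal limit the precision of every value. As a measure of error within an array, 12 other probes printed 17 times had a median SD among their copies of 0.18 (replicate 1) and 0.19 (replicate 2).

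The 2 arrays ran against each other once their dyes were turned as labelled. Over the 6345 tested probes Pearson's r between the 2 log2 ratios was -0.53 and Spearman's rho -0.23. Over the 32 muscle probes they were -0.35 and -0.23. These are descriptions across probes that share both arrays. Because r lies below -0.3, the direction of a single value is not settled. Whether the dye label of 1 array is exchanged or the ratios follow the dyes was not tested, and the values with the sign of replicate 2 turned are given as well. With the labelled signs, limma called 0 of 32 muscle probes at a Benjamini-Hochberg adjusted p of 0.05, against 0% of all probes. No muscle probe had an adjusted p below 0.995. Without adjustment, 0 muscle probes and 149 of all 6345 had a p under 0.05.

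Muscle RNA was measured in both groups. Of the 47 muscle probes 68.1% were above background in at least 1 channel, against 43.5% of all gene probes. In all 4 channels 9 muscle probes (19.1%) were above background, against 8.45% of all. These 9 belong to Act87E, wupA, TpnC25D, TpnC47D, Tm1, sls, Mlp60A, Unc-89 and Strn-Mlck. For 16 muscle probes a channel passed on replicate 1 only, for 3 on replicate 2 only and for 13 on both. For 5 genes no probe passed, namely Act88F (flight muscle actin), fln (flightin, a thick filament protein of flight muscle), Mlc1 (the essential myosin light chain), up (troponin T) and tn (thin, a protein of the Z-disc region that keeps muscle stable). Since Mlc1 and up are known from all muscles of the fly, a probe below background does not show that a transcript was missing.

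As a group, the muscle genes did not move one way. Of the 32 tested probes 7 were higher on both arrays and 8 lower on both, while 17 had opposite signs. Over all tested probes 24.6% were higher and 22.2% lower on both, so the muscle counts (21.9% and 25%) lie near the background. The split was 12 and 3 with median centring of the arrays and 11 and 1 of 30 probes in the authors' deposited ratios. Of all probes 34.7% and 38.5% were then higher on both and 13.0% and 7.96% lower. On replicate 1 alone 16 of 32 were above 0 and on replicate 2 alone 15 of 32. The median log2 ratio was -0.015 on the first array, -0.019 on the second and -0.027 for their mean, beside 0.0098 for all tested probes. Individual means ran from -0.69 to 0.85. No muscle probe was 2-fold or more apart in one direction on both arrays (0 higher, 0 lower), where the shares of all probes were 0.0158% higher and 0.378% lower. With replicate 2 turned, 9 muscle probes were higher and 8 lower on both arrays, against 27.1% and 26.1% of all, and their median was 0.0019. Among the 9 probes above background in all 4 channels 0 were higher on both arrays, 2 were lower and 7 had opposite signs. The shares over the 1233 such probes of the whole array were 24.0%, 21.2% and 54.8%. Of the 13 muscle probes with a channel above background on both arrays, 0 were higher on both and 4 lower. The shares over all such probes were 24.9% and 19.6%. Each of the 7 muscle probes higher on both arrays thus had an array without any channel above background. The 15 muscle probes that could not be tested had 5 higher, 3 lower and 7 of opposite sign, with means from -0.54 to 0.27 that come from spots at background level.

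**Figure D1:**
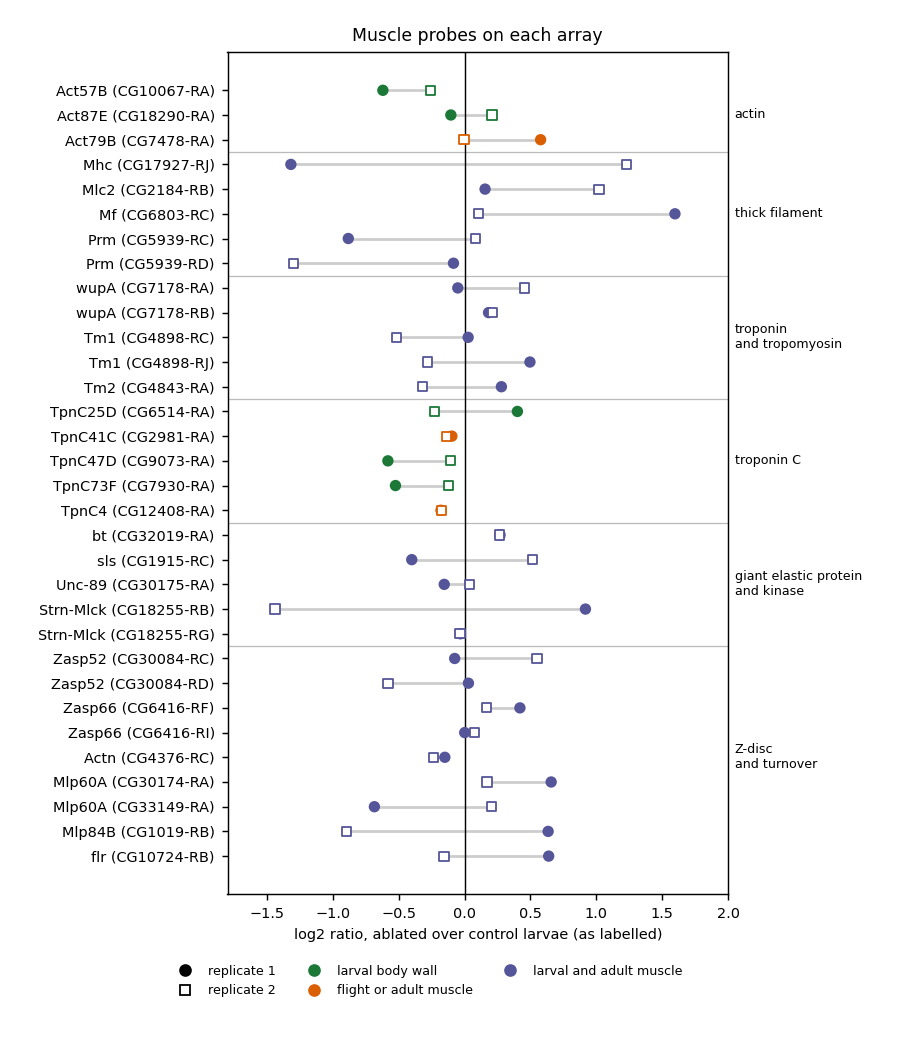
Log2 ratio of ablated over control larvae (x axis) for each of the 32 tested muscle probes (y axis, gene and transcript), with replicate 1 as filled circles and replicate 2 as open squares. Colours give the muscle in which a gene is mainly used. For 17 probes the 2 arrays lie on opposite sides of 0, and the probes for Mhc and Strn-Mlck (CG18255-RB) have the widest gaps.

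Among the actins, Act57B, the main actin of larval body wall muscle, was the only tested one that was lower on both arrays. Its normalized log2 intensity was 8.48 in ablated and 9.10 in control larvae on replicate 1, and 8.81 and 9.07 on replicate 2. The control was thus brighter on each array, with log2 ratios of -0.62 and -0.26 (-0.44 ± 0.26), but neither group was above background on replicate 2 and the probe did not pass the test. Act87E, a further actin of larval muscle, had 2 probes. The measurable one (CG18290-RA) read 8.57 and 8.67 on replicate 1 and 11.39 and 11.18 on replicate 2 in ablated and control larvae. Its groups lay close together on each array (0.052 ± 0.22), while the arrays differed from each other by 2.67 on the log2 scale. Act79B, an actin of adult tubular muscles such as those of the leg, was above background on replicate 1 only, with ratios of 0.58 and -0.0041. The coding sequences of the muscle actins are very alike, so these values are uncertain as values of a single gene.

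The cytoplasmic actin Act42A, given for comparison, stood at -0.23 and -0.19 (-0.21 ± 0.029), and the probe of Act5C was not above background in any channel. Act42A had all channels above background, and its value lies between those of Act57B and Act87E.

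Thick filament genes gave the widest spread between arrays. Mhc, the muscle myosin heavy chain, read 11.86 in ablated and 13.18 in control larvae on replicate 1. On replicate 2 it read 12.31 in ablated and 11.08 in control larvae, the last not above its local background. The control was the brighter group on the first array and the dimmer on the second, at log2 ratios of -1.32 and 1.23, so the mean as labelled was -0.045 ± 1.80. Read by dye, the Cy3 channel was the brighter one on both arrays. Mhc was the 1 muscle probe that differed at least 2-fold in opposite directions, as did 5.71% of all tested probes.

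The other thick filament genes did not pass either, and none was above background in every channel. Mlc2, the regulatory light chain that tunes myosin activity, read 7.81 and 7.66 in ablated and control larvae on replicate 1, where both were below background, and 10.36 and 9.34 on replicate 2. The ablated larvae were brighter on each array, with ratios of 0.16 and 1.02 (0.59 ± 0.61). Mf, myofilin, a protein of the thick filament core, had the highest mean of all muscle probes. It read 8.60 and 7.01 on replicate 1 and 8.56 and 8.45 on replicate 2, so the gap of 1.60 came from the first array and was 0.11 on the second (0.85 ± 1.05). The controls were not above background on either array and the ablated larvae on replicate 1 only. With 1 of 4 channels above background, no lower bound on its ratio is given.

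Prm, paramyosin, which forms the core of the thick filament, had 2 tested probes that read lower on different arrays. The CG5939-RC probe stood at 8.18 in ablated and 9.07 in control larvae on replicate 1 and at 10.07 and 9.99 on replicate 2. Its ratios were -0.88 and 0.085 (-0.40 ± 0.68), with controls not above background on either array. The CG5939-RD probe stood at 10.38 and 10.46 on replicate 1 and at 9.89 and 11.19 on replicate 2, with ratios of -0.084 and -1.30. Its mean of -0.69 ± 0.86 was the lowest among the tested muscle probes. The ablated channel of this probe was not above background on replicate 2, the array with the ratio of -1.30. Both probes of the gene thus had negative means, one because of the first array and the other because of the second, and neither passed the test (adjusted p = 0.995, limma).

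**Figure D2:**
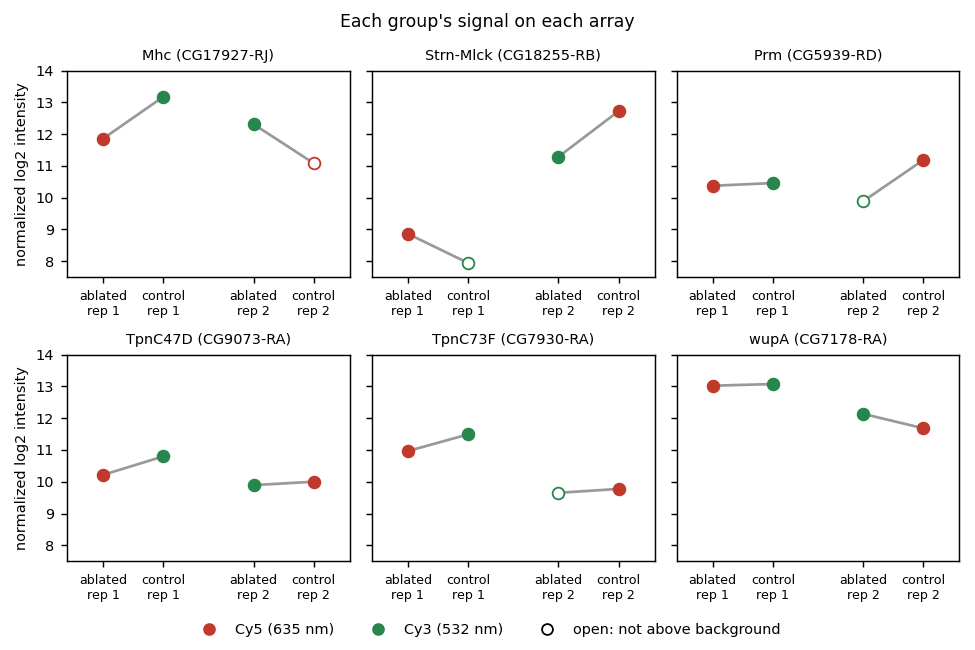
Normalized log2 intensity (y axis) in the ablated and control channel of each array for 6 muscle probes, with Cy5 in red, Cy3 in green and open circles for channels not above background. Mhc and Strn-Mlck change order with the dyes, while TpnC47D and TpnC73F are brighter in the control larvae on both arrays.

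Troponin C, the calcium sensor of the thin filament, is encoded by 5 genes on the list, and each has 1 probe that could be tested. Of these 4 were lower in ablated larvae on both arrays and 0 higher, with a median of -0.18. Over all tested probes 22.2% were lower and 24.6% higher on both. The count rests on small ratios and on none that passed the test. It was not kept in the authors' deposited ratios, which are not centred. There the 4 read 0.07 and -0.032 (TpnC47D), 0.151 and -0.06 (TpnC73F), 0.574 and -0.67 (TpnC41C) and 0.484 and 0.075 (TpnC4). TpnC47D and TpnC73F, both used in larval muscle, had the lowest means. TpnC47D read 10.22 in ablated and 10.80 in control larvae on replicate 1 and 9.89 and 10.00 on replicate 2, all above background, giving -0.58 and -0.11 (-0.35 ± 0.34). For TpnC73F the readings were 10.97 and 11.49 on replicate 1 and 9.65 and 9.77 on replicate 2, giving -0.52 and -0.12 (-0.32 ± 0.28). The ablated channel of TpnC73F was not above background on replicate 2. The controls were brighter on each array for both genes. On replicate 2 these differences were smaller than the SD between copies of a probe.

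TpnC41C and TpnC4, the forms used in adult tubular and in flight muscle, stood at -0.12 ± 0.028 and -0.18 ± 0.0026. Their ratios were alike on the arrays (-0.097 and -0.14 for TpnC41C, -0.18 on both for TpnC4). Neither probe was above background on replicate 2, and the intensity of TpnC4 fell by 2.87 on the log2 scale from the first array to the second. TpnC25D, a further larval form, was above background in all channels and had opposite signs, at 0.40 and -0.23 (0.085 ± 0.45). Turning replicate 2 left 0 of the 5 troponin C probes lower and 1 higher on both, with a median of -0.0018.

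The remaining regulatory proteins of the thin filament had means from -0.25 to 0.20. Of 9 probes for up, wupA, Tm1 and Tm2, 5 were tested, 1 was higher on both arrays and 4 had opposite signs. The bright probe of wupA (troponin I, which holds the thin filament shut, CG7178-RA) read 13.02 and 13.08 on replicate 1 and 12.14 and 11.68 on replicate 2. Ablated and control larvae thus lay together on the first array and 0.45 apart on the second (0.20 ± 0.36). The CG7178-RB probe of wupA gave 0.20 ± 0.021, with controls not above background on either array and ablated larvae on replicate 1 only. Tm1 and Tm2 encode tropomyosins. The 2 tested probes of Tm1 had means of opposite sign, -0.25 ± 0.39 for CG4898-RC and 0.11 ± 0.55 for CG4898-RJ. CG4898-RC had no channel above background on replicate 2. For Tm2 the ratio was 0.28 on replicate 1 and -0.32 on replicate 2 (-0.021 ± 0.43). Its probe was above background in 1 of 4 channels, that of the ablated larvae on replicate 1.

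Among the giant proteins, Strn-Mlck, stretchin with a myosin light chain kinase domain, had 2 tested probes that behaved differently. Its CG18255-RB probe read 8.86 in ablated and 7.95 in control larvae on replicate 1, and 11.28 and 12.72 on replicate 2. The ablated larvae were brighter on the first array and the controls on the second, at 0.92 and -1.44 (-0.26 ± 1.67), so the Cy5 channel was brighter on both. The CG18255-RG probe of the same gene read 8.65 and 8.69 on replicate 1 and 9.74 and 9.78 on replicate 2. Its groups were nearly equal on each array (-0.033 ± 0.0022), with all channels above background. A large gap between arrays was therefore a property of 1 probe and not of every probe of the gene.

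Of the other giant proteins, sls and Unc-89 had opposite signs on the arrays, which left means near 0, while bt had a positive ratio on both. The sls gene, for the titin-like protein sallimus that links the Z-disc to thick filaments, stood at -0.40 and 0.52 (0.057 ± 0.65, CG1915-RC). Unc-89, obscurin of the middle of the sarcomere, stood at -0.15 and 0.038 (-0.058 ± 0.14, CG30175-RA). Both were above background in all channels. The bt gene, for projectin, stood at 0.27 and 0.26 (0.27 ± 0.0033), above background in 1 of 4 channels, which was an ablated one.

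Genes of the Z-disc and of filament turnover had 9 tested probes, of which 3 were higher on both arrays, 1 was lower and 5 had opposite signs. Neither the 3 higher probes nor the lower one had a channel above background on replicate 2. Mlp60A, a muscle LIM protein, had tested probes of opposite sign, which were matched by synonym under different CG numbers. Its bright probe (CG33149-RA) read 10.99 and 11.67 on replicate 1 and 12.80 and 12.59 on replicate 2 in ablated and control larvae (-0.24 ± 0.63). The CG30174-RA probe read 9.25 and 8.60 on replicate 1 and 9.30 and 9.13 on replicate 2 (0.41 ± 0.34). It was brighter in the ablated larvae on each array, but neither group was above background on replicate 2. Mlp84B, the other muscle LIM protein, stood at 0.63 and -0.90 (-0.13 ± 1.08), above background on replicate 1 only.

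Zasp52 and Zasp66 encode PDZ domain proteins that bind Actn, alpha-actinin, the crosslinker of thin filaments at the Z-disc. The 2 tested probes of Zasp52 differed in sign, at 0.24 ± 0.44 (CG30084-RC) and -0.28 ± 0.43 (CG30084-RD). The first was above background on replicate 2 only, the second in the ablated channel of replicate 1 only. The tested probes of Zasp66 stood at 0.29 ± 0.18 and 0.037 ± 0.051, with controls not above background on either array and ablated larvae on replicate 1 only. Actn was lower on both arrays, at -0.15 and -0.23 (-0.19 ± 0.059, CG4376-RC), with neither group above background on replicate 2. The flr gene, for an actin-interacting protein that promotes filament turnover, stood at 0.64 and -0.16 (0.24 ± 0.56). Its probe was above background only in the ablated channel of replicate 1. In all, 7 genes had more than 1 tested probe, and for 3 of them (Tm1, Zasp52 and Mlp60A) the means of the probes had opposite signs.

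**Figure D3:**
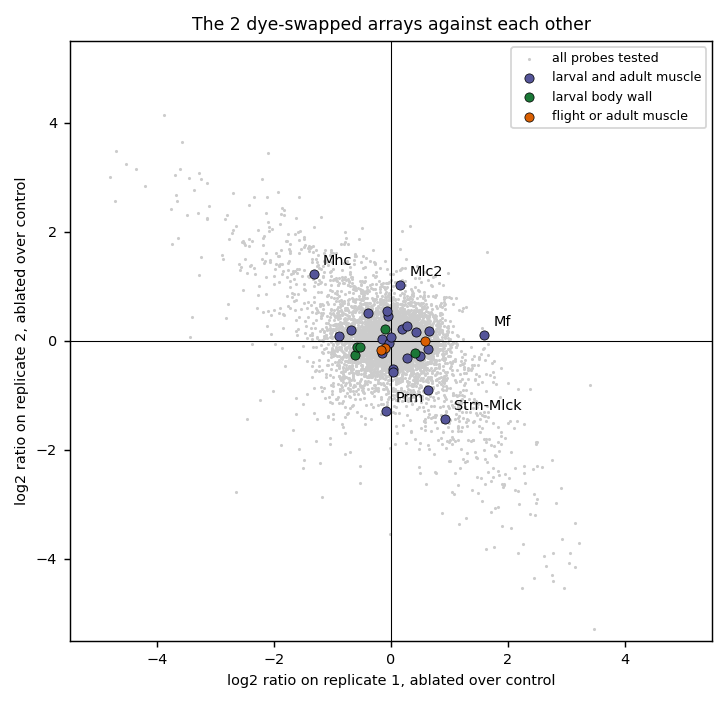
Log2 ratio of ablated over control on replicate 1 (x axis) against replicate 2 (y axis) for all 6345 tested probes in grey and the 32 muscle probes in colour. The cloud runs from the upper left to the lower right (r = -0.53), with Mhc and Strn-Mlck (CG18255-RB) along it and most muscle probes near the centre.

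Larval body wall genes were then set beside those of flight and other adult muscle. The larval class held Act57B, Act87E, TpnC25D, TpnC47D and TpnC73F, and the adult class Act79B, Act88F, TpnC41C, TpnC4 and fln. Of 6 larval probes 5 were tested, with 3 in all channels, and of 5 adult probes 3 were tested, with 0 in all channels. The tested larval probes had a median log2 ratio of -0.52 on replicate 1, -0.12 on replicate 2 and -0.32 over both, with 3 lower and 0 higher on both arrays. The tested adult probes had a median of -0.097 on replicate 1, -0.14 on replicate 2 and -0.12 over both, with 2 lower and 0 higher. The larval median was the lower one on replicate 1. On replicate 2 the medians lay close together and no tested adult probe was above background, so no order of the classes can be read there. The 24 tested probes of genes used in both kinds of muscle had a median of 0.0081, with 7 higher and 3 lower on both. An exact sign-flip test over 2 arrays cannot go below a two-sided p of 0.5, and none was run on these medians. With replicate 2 turned, the medians were -0.18 for larval, 0.020 for adult and 0.022 for shared genes. The untested Act88F read 0.095 and 0.45 and fln -0.26 and 0.082, values from spots at background level.

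Reading the second array with its sign turned, limma called 2 of the 32 muscle probes, where it called 8.7% of all tested probes. Mhc was then lower in ablated larvae at -1.27 ± 0.063 (adjusted p = 0.00256). The CG18255-RB probe of Strn-Mlck was higher at 1.18 ± 0.37 (adjusted p = 0.00691). The other Strn-Mlck probe stood at 0.0015 ± 0.046 in the same reading, and Mlp84B at 0.77 ± 0.19 did not pass (adjusted p = 0.194). Of the probes with the highest and lowest means as labelled, Mf stood at 0.74 ± 1.21, Mlc2 at -0.43 ± 0.83 and the CG5939-RD probe of Prm at 0.61 ± 0.98, so the last 2 changed sign. The larval genes TpnC47D (-0.24 ± 0.49) and Act57B (-0.18 ± 0.62) had smaller means than as labelled, as did TpnC73F (-0.20 ± 0.46). Act87E became -0.16, Act79B stayed at 0.29, and the CG5939-RC probe of Prm stood at -0.48. Among the thin filament regulators, wupA became -0.25 (CG7178-RA) and -0.015 (CG7178-RB), Tm1 0.27 (CG4898-RC) and 0.39 (CG4898-RJ), Tm2 0.30, TpnC25D 0.32 and TpnC41C 0.020. Of the giant proteins, bt became 0.0023, sls -0.46 and Unc-89 -0.096. In the class of the Z-disc and filament turnover, Zasp52 became -0.31 (CG30084-RC) and 0.31 (CG30084-RD) and Zasp66 0.13 (CG6416-RF) and -0.036 (CG6416-RI). Actn became 0.042, Mlp60A 0.24 (CG30174-RA) and -0.44 (CG33149-RA) and flr 0.40. The mean changed sign for 16 of the 32 probes, so for these the direction rests on how the second array is read. The share of muscle probes called lies near that of the array, so these 2 calls are no result about the muscle genes as a group.

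A wider list of 40 genes for filament assembly, calcium handling, muscle attachment and muscle formation gave a similar picture. In it 25 genes had 30 tested probes, of which limma called 0; 7 were higher and 5 lower on both arrays, 18 had opposite signs, and the median was 0.053. By class, the probes higher and lower on both arrays numbered 1 and 1 of 9 for thin filament assembly, 1 and 0 of 4 for calcium handling and energy, 4 and 1 of 9 for attachment and 1 and 3 of 8 for myogenic regulators and fusion. None (0) of them moved one way by 1.5-fold or more on each array. Mef2, the main transcription factor of muscle genes, came near it with 1 probe at 0.48 and 0.51 (CG1429-RE, turned mean -0.014, named after its values were seen), while its other probe stood at 0.050 ± 0.11 (CG1429-RB). In the other direction mbl, muscleblind, a splicing regulator of muscle, came near with 1 probe at -1.35 and -0.46 (CG33197-RB, turned mean -0.44, likewise named afterwards), while its other tested probes stood at 0.082 and -0.10. With replicate 2 turned, limma called 0 of the 30 probes.

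Signal levels of the muscle probes differed more between arrays than between groups. The median absolute difference in level between the arrays was 1.01 on the log2 scale over the 32 probes, near the 1.03 of all tested probes. The median absolute log2 ratio between the groups was 0.34 on replicate 1 and 0.22 on replicate 2. Strn-Mlck (CG18255-RB) rose by 3.60 from the first array to the second and Unc-89 by 2.76, while Tm2 fell by 2.53. Markers of other tissues were also unequal. The median over 6 tested salivary gland probes was -1.67, that over 4 probes of epidermis and cuticle -0.74 and that over 5 fat body probes 0.11. With replicate 2 turned these were 0.31, 0.14 and -0.19. Midgut (3 probes) stood at -0.31, nervous system (5) at 0.21, blood cells (1) at 0.36 and imaginal disc (8) at -0.093. Turned, these 4 lists stood at 0.0063, -0.26, 0.031 and 0.079. The 3 midgut probes lay far apart, with epsilonTry at 2.12 and -2.73, LysB at -1.89 and -1.91 and Jon65Aiv at 0.014 and 0.020. Opposite signs on the arrays were found for 1 of the salivary gland, 2 of the cuticle and 2 of the fat body probes. In the other lists they were found for 1, 4, 0 and 5 probes. The part of such shifts in the muscle values was not tested.

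**Figure D4:**
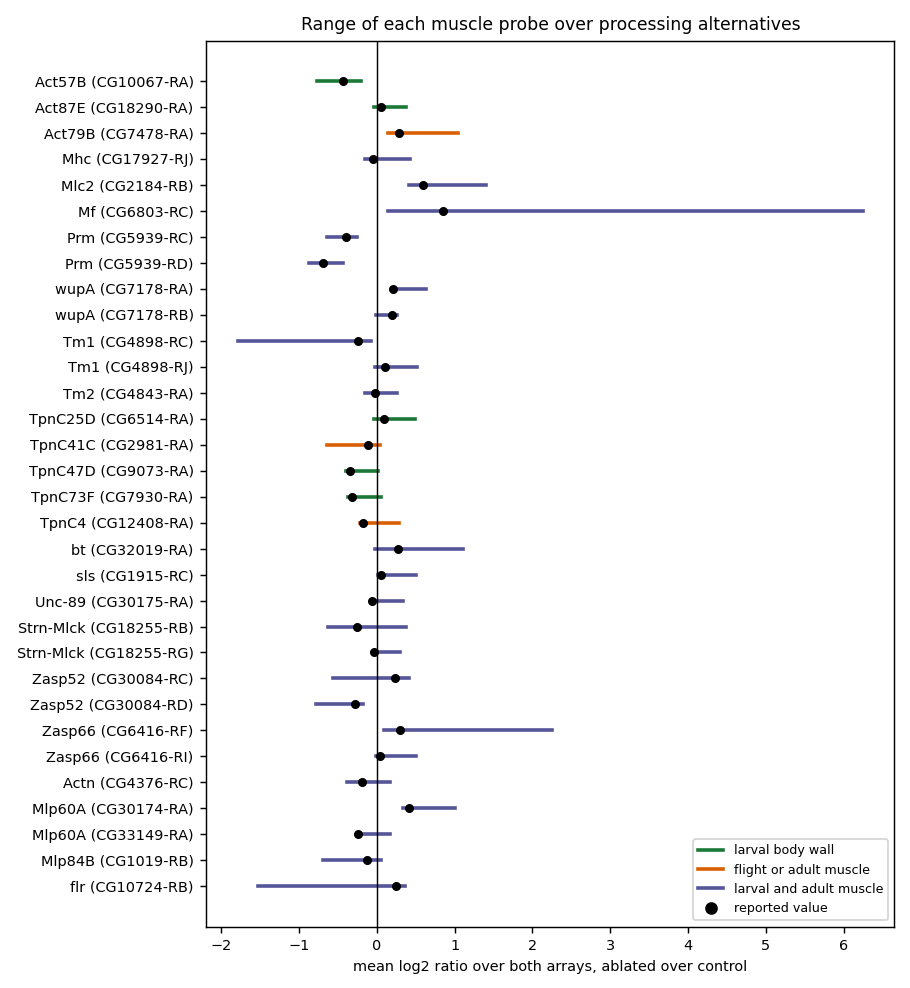
Mean log2 ratio of ablated over control (x axis) for each tested muscle probe, with the reported value as a black dot and the range over it and up to 7 alternatives of background correction, normalization and source of values as a line. The line crosses 0 for 20 of the 32 probes and is longest for Mf, which reaches 6.25 with plain background subtraction.

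Many single muscle values depended on the processing. Over 7 alternatives of background correction, normalization and source of values, 12 of the 32 probes kept their sign, Act57B (-0.77 to -0.20), both probes of Prm (-0.88 to -0.43 and -0.64 to -0.26) and Mlc2 (0.41 to 1.40) among them. TpnC47D ran from -0.40 to 0.019 and TpnC73F from -0.37 to 0.046. The range exceeded 1 on the log2 scale for 5 probes, and Mf ran from 0.14 to 6.25, the highest value with plain background subtraction.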

How the data were processed

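GenePix Pro 7.1.25 read the spots, per the file headers. The deposited values are medians, means and SDs of spot and background intensity in the Cy5 and Cy3 channels, with the percent of saturated pixels, also deposited (0 for every muscle probe). The authors' deposited log2 ratios equal the scanner's log2 ratio of Cy5 over Cy3 on replicate 1 (r = 1) and its negative on replicate 2 (r = -0.998). They run as ablated over control and are not centred (medians 0.487 and -0.115).

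Probes were named through the RefSeq gene table (Release 6), with 12688 matches on the locus tag, 1218 on a synonym and 687 left under the deposited name. In limma 3.58.1 (R 4.3.3) background was corrected by normexp (offset 50), ratios were loess-normalized within arrays and replicate 2 was turned by its dyes. Intensities of groups are after Aquantile. Probes were tested by lmFit and eBayes over all 6345, two-sided, with Benjamini-Hochberg adjustment. The code was tested on simulated data. The members and lists were chosen with earlier results of these data known. All member probes are reported or counted; wider-list genes were to be named at 1.5-fold or more on both arrays. The muscle class of each gene is background knowledge. Alternatives are listed in the closing section.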

Additional observations from a re-analysis of the deposited data

How the results depend on the processing

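The arrays limit every value: 2 ratios per probe, few channels above background, and no degree of freedom for a dye term. Each array sets ablated against control RNA, so the test of its ratio is already paired, and a further block could not be fitted. Under every alternative except the turned sign of replicate 2, which called 2, limma called 0 muscle probes, including an adjusted p of 0.1 and an intensity trend. Muscle probes higher and lower on both arrays (7 and 8 of 32 as reported) were 12 and 3 of 32 when arrays were median-centred. By the authors' own ratios they were 11 and 1 of 30. All probes were then 2204 and 822 of 6345, and 2232 and 462 of 5804. The muscle counts were 12 and 11 of 47 with no filter and 0 and 4 of 13 with the stricter filter. Shares of all probes were then 23.2% and 23.1%, and 24.9% and 19.6%. The brightest probe per gene gave 4 and 7 of 25 and the mean of spot pixels 8 and 5 of 32. Shares of all probes were there 24.5% and 22.4%, and 24.2% and 22.0%. At least 2-fold on both arrays, 1 was higher with plain subtraction and 1 lower with the sign turned.

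The median of the tested muscle probes (-0.027) was -0.018 with plain subtraction, -0.012 without background correction, -0.036 with an offset of 16, -0.017 with print-tip loess, 0.16 with median centring, -0.043 with no filter, -0.045 with the stricter filter, 0.27 in the authors' values, -0.058 with the brightest probe, 0.0019 with the sign turned and -0.012 with the mean of pixels. Without one of the replicates it was -0.019 or -0.015. Centring and the ratios of the authors moved the median of all probes to 0.14 and 0.31, so the muscle median stayed near it. The larval median (-0.32) was 0.046 in the authors' values, -0.13 when median-centred, -0.14 with the stricter filter, -0.19 with no filter, -0.18 with the sign turned and -0.20 with the mean of pixels; leaving out a replicate gave -0.52 or -0.12. For genes of both kinds of muscle (0.0081) the median was 0.047 with plain subtraction, 0.17 when median-centred, -0.045 with the stricter filter, 0.28 in the authors' values, -0.045 with the brightest probe and 0.028 or 0.080 without a replicate. The adult median (-0.12) was -0.18 without background correction, -0.055 with print-tip loess, 0.034 with median centring, 0.28 in the authors' values, 0.020 with the sign turned and 0.014 with the mean of pixels, and -0.097 or -0.14 without a replicate; with the stricter filter no adult probe was left. The brightest probe and the filters change the probes counted. The authors' ratios left 30 muscle probes, Mf not among them, and are not centred. For these ratios and the remaining alternatives the cause was not tested.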
